A study of Homo sapiens with 16 samples.

Results

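The replication-dependent histone genes of chromosome 6 were examined for H3K27ac, the acetylation of histone H3 at lysine 27 that marks active promoters and enhancers, in K562, a human erythroleukemia cell line. The genes were taken as the protein-coding genes of the RefSeq table of GRCh38 that lie between 25 and 29 Mb of chromosome 6 and whose symbol begins with H1-, H2AC, H2BC, H3C or H4C. This gave 55 genes of the 19630 protein-coding genes with a known strand, made up of 6 genes for linker histone H1, 12 for H2A, 15 for H2B, 10 for H3 and 12 for H4. A gene was counted as marked in a library when a peak with a q-value of 1% or less (a −log10 q of 2 or more) lay within 2 kb of its transcription start site (TSS), and its value was the fold enrichment over input of the strongest such peak. The rule uses position and name only and no measured value, but the gene set was chosen with earlier results of these data known.

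The data are 14 peak lists, each from 1 ChIP library of untreated K562 cells and the same H3K27ac antibody. In the fixed arm, 0.25 µg of antibody was added to 7 amounts of chromatin that doubled from 0.31 to 20 µg, measured as the DNA content of the chromatin (DNAchrom), which set the titer, the ratio of antibody to chromatin, to 32, 16, 8, 4, 2, 1 or 0.5. In the normalized arm the same 7 amounts of DNAchrom were used with antibody scaled to titer 1, and each library is named by its amount and titer, as in 0.31-T32 or H3K27ac-1.25-T8. The condition of 10 µg at titer 1 was made in both arms, as 10-T1a and 10-T1b, and these are the only 2 libraries of 1 condition. All other conditions have 1 library, so a p-value below measures the order of single libraries along a dose and not the spread between cultures. Titer and DNAchrom change together in the fixed arm, whereas in the normalized arm DNAchrom changes at a constant titer. Each arm was called against its own input library, so the arm and its input cannot be told apart. The lists held 64083 to 82143 peaks at this threshold, and since they give no read counts, no counting error can be attached to a value.

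Replication-dependent histone genes supply the histones that package newly copied DNA, and they are transcribed mainly in S phase. They are short genes without introns in their usual form, and their messages end in a stem-loop that is bound by SLBP instead of a poly(A) tail. Most human copies lie in clusters on chromosome 6, where genes for H2A and H2B often stand back to back around a shared promoter, and the factor NPAT gathers at the clusters to drive their transcription. Histone genes within a class are close copies of each other. The paper states that read pairs with at least 1 uniquely mapped end were kept, so pairs lying wholly within identical stretches would be lost. Whether this affected single genes was not tested.

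The promoters carried the elements for which histone genes are known. RefSeq promoters of GRCh38.p14, of 300 bases with 250 before the start, were given for 50 of the 55 genes. A TATA box, searched as TATAAA on both strands, was in 66% of these 50 promoters and in 9.75% of all 15813 promoters of the table. CCAAT, the box bound by NF-Y, was in 86% against 36.4%, and ATTTGCAT, the octamer bound by OCT1 (POU2F1), in 44% against 1.72%. The octamer was in 12 of 15 H2B promoters and 9 of 11 H2A promoters, in 1 of 8 H3 promoters and in none of 6 H1 and 10 H4 promoters. The H3 promoter is that of H3C4, whose listed start is the same base as that of H2AC7, so it is an H2A promoter counted again. In 11 of the H2B promoters the octamer lay on the strand of the gene, with its first letter 45 to 123 bases before the TSS and a median of 49. In 8 of the 9 H2A promoters it lay on the opposite strand, 118 to 208 bases before the TSS with a median of 161. Where divergent starts lie less than 250 bases apart, the bases between them belong to both promoters, so 1 match there is counted for both genes. CCAAT was in all H1, H2A, H2B and H3 promoters and in 3 of 10 H4 promoters. TTTGGCGC and TTTCCCGC, which resemble sites of E2F factors, were in 0 and 1 of the 50 promoters, against 0.885% and 2.18% of all promoters. All were searched on both strands, and none of these words contains another. The shares therefore include matches on the opposite strand only. Of the 11 H2B promoters with TATAAA, for example, 8 held it on the strand of the gene. The shares do not count independent promoters.

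Bases upstream of the TSS are shown for 3 H2B genes with the octamer that differed in H3K27ac: H2BC4 had a peak in all 14 lists, H2BC9 in 9 lists and H2BC10 in none. Capitals mark the matches, on either strand, to the TATA box, the CCAAT box and the octamer. The TTTATA of H2BC4 is the TATAAA that begins 31 bases before the TSS of H2AC6, its divergent neighbour. H2BC4 is shown from chr6:26123927-26124171 on the minus strand, H2BC9 from chr6:26251364-26251613 and H2BC10 from chr6:26272681-26272930 on the plus strand, each read 5′ to 3′.
H2BC4: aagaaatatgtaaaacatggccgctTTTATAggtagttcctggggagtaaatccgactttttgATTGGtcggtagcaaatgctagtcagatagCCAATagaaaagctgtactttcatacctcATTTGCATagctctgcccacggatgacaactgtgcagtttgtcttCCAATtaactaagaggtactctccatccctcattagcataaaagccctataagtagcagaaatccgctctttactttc
H2BC9: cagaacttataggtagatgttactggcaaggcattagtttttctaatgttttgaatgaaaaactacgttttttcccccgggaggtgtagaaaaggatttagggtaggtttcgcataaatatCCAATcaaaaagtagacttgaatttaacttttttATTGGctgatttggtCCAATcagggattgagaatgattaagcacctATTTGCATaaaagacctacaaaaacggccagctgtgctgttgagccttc
H2BC10: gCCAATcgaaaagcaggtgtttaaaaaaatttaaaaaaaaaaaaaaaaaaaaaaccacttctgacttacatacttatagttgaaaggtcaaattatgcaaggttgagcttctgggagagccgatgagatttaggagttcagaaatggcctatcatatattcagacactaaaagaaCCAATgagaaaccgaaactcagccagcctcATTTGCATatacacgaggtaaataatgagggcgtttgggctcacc

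The promoters of H1-4, H3C2 and H4C12 are shown because these genes had the highest mean rank of their class. They lie at chr6:26156079-26156328 on the plus strand, chr6:26032100-26032349 on the minus strand and chr6:27831561-27831810 on the minus strand. None of the 3 holds the octamer, and each has a TATAAA on the strand of the gene close to its 3′ end.
H1-4: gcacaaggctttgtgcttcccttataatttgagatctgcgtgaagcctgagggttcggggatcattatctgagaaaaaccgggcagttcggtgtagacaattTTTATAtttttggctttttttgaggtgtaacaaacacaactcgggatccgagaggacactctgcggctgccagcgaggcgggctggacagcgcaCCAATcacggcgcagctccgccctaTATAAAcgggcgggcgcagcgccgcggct
H3C2: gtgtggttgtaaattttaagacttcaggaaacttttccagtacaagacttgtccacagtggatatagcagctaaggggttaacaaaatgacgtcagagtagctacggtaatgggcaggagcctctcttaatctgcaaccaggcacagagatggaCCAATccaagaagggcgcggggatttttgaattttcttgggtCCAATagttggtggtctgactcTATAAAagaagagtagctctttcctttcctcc
H4C12: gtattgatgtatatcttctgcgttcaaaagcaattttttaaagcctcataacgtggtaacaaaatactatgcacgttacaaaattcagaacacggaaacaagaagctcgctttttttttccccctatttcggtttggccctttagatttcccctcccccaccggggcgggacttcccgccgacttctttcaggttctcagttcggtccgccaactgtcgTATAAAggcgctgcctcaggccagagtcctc

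Most of these genes were marked whatever the titer. A peak lay within 2 kb of the TSS in all 14 lists for 39 of the 55 genes (70.9%), while the same held for 49.2% of all protein-coding genes. No list had a peak for 7 genes (12.7%, against 37.5% of all genes), and 9 genes had a peak in 1 to 13 lists (16.4%, against 13.3%). By class, all 14 lists held a peak for 4 of 6 H1 genes, 11 of 12 H2A genes, 10 of 15 H2B genes, 5 of 10 H3 genes and 9 of 12 H4 genes. The 5 H3 genes include H3C4, which was measured at the start of H2AC7. From 39 to 41 histone genes had a peak in the fixed lists and from 41 to 46 in the normalized lists, against 53.9% to 57.0% of all genes in any list. The number of marked histone genes ranged most in the normalized arm, from 41 in 10-T1b to 46 in H3K27ac-1.25-T1.

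**Figure D1:**
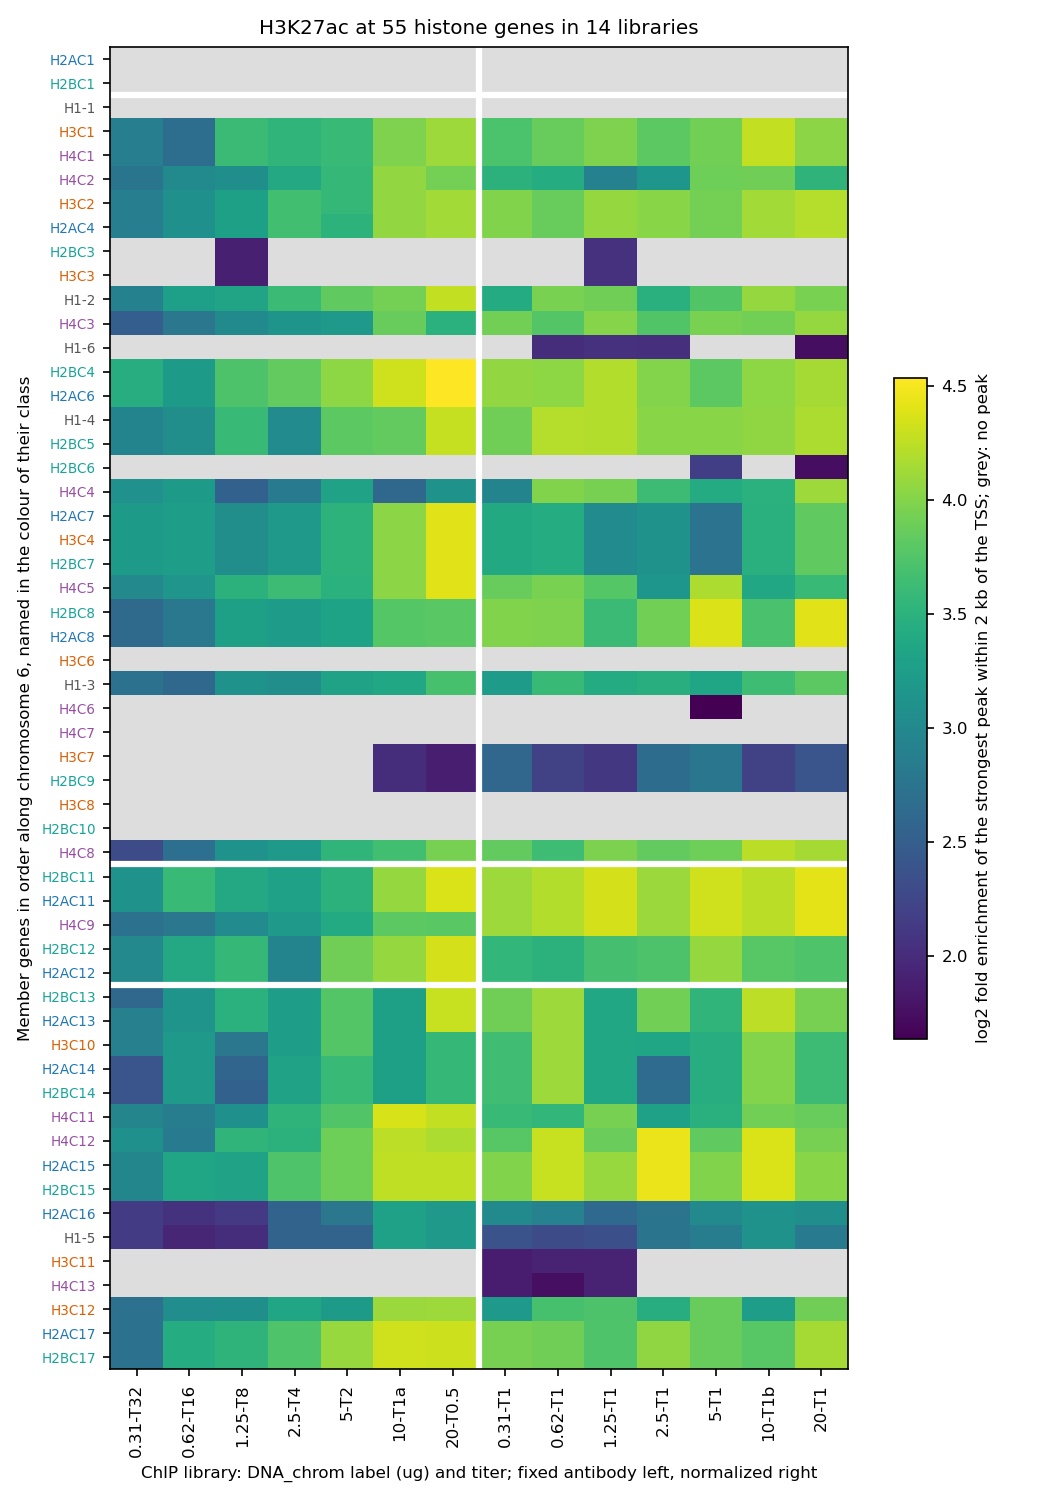
Log2 fold enrichment of the strongest H3K27ac peak within 2 kb of the TSS for the 55 histone genes (rows, in order along chromosome 6, white lines between the 4 groups of genes) in the 14 libraries (columns, fixed arm left and normalized arm right), with grey for no peak. Most of the 39 genes with a peak in every list darken toward 0.31-T32 in the fixed arm, though H4C4 does not. H3C7 and H2BC9 are grey at all titers over 1.

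The genes fell into 4 groups along the chromosome, divided where neighbouring starts lay over 200 kb apart. The pair H2AC1 and H2BC1 (chr6:25726063-25727345) stood alone and was not marked in any list. The largest group (chr6:26017032-26285534) held 32 genes, of which 20 were marked in all 14 lists, 7 in some and 5 in none. All 5 genes of the group at chr6:27132316-27147562 were marked in every list, as were 14 of the 16 genes at chr6:27807479-27893891, where the other two, H3C11 and H4C13, were marked in 3 lists. Peaks covered 54.9% to 93.5% of the span of the third group in the 14 lists, 15.5% to 27.7% of the second and 21.9% to 41.7% of the fourth. The 2 kb windows of the 55 genes take up 3.83% of the 4 Mb of DNA and held 20.1% to 30.9% of its peak bases. Peaks covered 36.9% to 59.8% of these windows, against 3.28% to 9.16% of the rest.

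The genes without a peak in any list were H2AC1, H2BC1, H1-1, H3C6, H4C7, H3C8 and H2BC10. H2AC1 and H2BC1 are known as testis histone genes. H3C8 and H2BC10 lie next to each other, at chr6:26270918-26271413 and chr6:26272931-26273412, between marked genes. Of the 7, the 3 genes H1-1, H3C6 and H4C7 had a peak within 5 kb of the TSS in 14, 12 and 9 lists, and the other four had none at that distance either. Their promoters carried the elements about as often as those of the marked genes: TATAAA was in 5 of 7 against 24 of 35 promoters with a peak in all lists, and the octamer in 3 of 7 against 16 of 35. These counts are descriptions of 300 bases, with matches on either strand and some matches counted for both genes of a divergent pair, and no test was made on them.

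Genes marked in part of the lists had weak peaks. H4C6 had a peak in 5-T1 alone, with a fold enrichment of 3.11. H2BC3 and H3C3, which encode H2B and H3, shared 1 peak in H3K27ac-1.25-T8 and 1 in H3K27ac-1.25-T1, with fold enrichments of 3.72 and 4.15. H2BC6 had a value of 4.51 in 5-T1 and 3.35 in 20-T1. H1-6, a testis-specific H1, had a peak in 0.62-T1, H3K27ac-1.25-T1, 2.5-T1 and 20-T1 with fold enrichments of 4.06, 4.15, 4.09 and 3.35. H3C11 had 3.66, 3.76 and 3.81 in 0.31-T1, 0.62-T1 and H3K27ac-1.25-T1, and H4C13 had 3.66, 3.39 and 3.81 in the same lists. Of these 7 genes, only H2BC3 and H3C3 had a peak in a fixed list, and for each the peaks ranked low, with a mean percentile of 2.68 to 26 among all peaks of the list.

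H3C7 and H2BC9 were marked in 9 lists, all of titer 1 or lower at the threshold used. Neither had a peak in the 5 fixed lists of titer over 1. The strongest peak of both genes reached 4.05-fold over input in 10-T1a, 3.67-fold in 20-T0.5 and 6.05, 4.62, 4.30, 6.34, 6.87, 4.61 and 5.27 in the normalized lists from 0.31-T1 to 20-T1. The value was thus above 4.05 in all 7 normalized lists, without an order by amount of DNAchrom. This list pattern was found in 9 of the 19630 genes (0.0458%), and H3C7, which the naming rule did not include, was singled out after its values were seen. The peak lay over H3C7, with its summit 469 to 882 bases downstream of that TSS in 8 of the 9 lists (in 5-T1, chr6:26249877-26250623), and it reached the window of H2BC9, whose TSS is 979 bases from that of H3C7 and divergent from it. In 20-T1 the strongest peak lay instead 647 bases downstream of the TSS of H2BC9. A list holds only peaks that passed its threshold, so a missing peak does not show an absence of H3K27ac. With the full deposited lists, down to a q-value of 5%, both genes had a peak in 10 lists. Of these, 1 was a fixed list of titer over 1. At a −log10 q of 5 or more, both genes had a peak in 5 normalized lists and in no fixed list. The split by titer therefore depended on the threshold, and at the strictest one it was a split by arm.

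Where present in all lists, the peaks of the histone genes ranked high. The percentile of the strongest peak among all peaks of its list, averaged over the 14 lists, had a median of 94.2 over the 39 genes and ran from 62.6 to 98.1, while the median over the 9655 genes with a peak in all 14 lists was 89.9. Of the 39 genes, 6 (15.4%) were among the 10% with the highest mean. The median was 91.6 for H1 genes, 94.3 for H2A, 95.2 for H2B, 91.3 for H3 and 93.4 for H4. The lowest were H1-5 and H2AC16, neighbours in the fourth group, at 62.6 and 69.6. Within a class the genes thus differed more than the class medians did.

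Many of these values are shared. The 39 genes had 29 distinct series of values, because neighbours within 2 kb of 1 peak take the same value, and 9 of the 29 series belonged to several genes. In 12 pairs of divergent histone genes the starts lay 194 to 979 bases apart, with a median of 242. In 10 of these pairs both genes had a peak in all 14 lists, H3C7 and H2BC9 were marked in 9 lists each, and H2AC1 and H2BC1 in none. Among the 12 and the 10, H2AC7 with H2BC7 and H3C4 with H2BC7 are the same pair of starts counted again, because H3C4 and H2AC7 share their listed start. The genes are therefore not independent of each other.

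H2AC6 and H2BC4, a divergent pair, had the highest mean percentile of the H2A and H2B genes and shared their strongest peak. Its fold enrichment in the fixed arm, going down from titer 32 to 0.5, was 10.9, 9.31, 13.3, 14.3, 16.5, 20.1 and 23.2. In the normalized lists from 0.31-T1 to 20-T1 it was 16.8, 16.6, 18.5, 16, 14, 16.6 and 17.8. The fixed lists of titer 32, 16 and 8 lay below every normalized list, 2.5-T4 and 5-T2 lay within the range of the normalized lists, and 20-T0.5 was the highest of all. The fall was 0.21 on the log2 scale for each doubling of titer (Pearson r = -0.96, exact permutation p = 0.00198, adjusted over all genes 0.0110; Spearman rho = -0.96, exact permutation p = 0.00278). At 10 µg and titer 1 this peak spanned chr6:26120076-26123942 in 10-T1b.

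H3C2, which encodes H3, led its class and rose steadily as the titer was lowered, apart from 5-T2. The values from titer 32 to 0.5 were 7.35, 8.53, 9.73, 12.6, 11.8, 16.7 and 17.6, and those of the normalized lists from 0.31-T1 to 20-T1 were 15.9, 14.5, 16.9, 16.3, 15.3, 17.5 and 18.6. All 7 normalized values lay above the 5 values at titer over 1. The fall for each doubling of titer was 0.21 (r = -0.98, exact permutation p = 0.00119, adjusted 0.00941; rho = -0.96, exact permutation p = 0.00278).

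H1-4, a linker histone gene with the highest rank among the H1 genes, shared its peak with its neighbour H2BC5. Its fold enrichment from titer 32 to 0.5 was 7.73, 8.37, 12.2, 8.20, 14, 14.4 and 19.5, and in the normalized lists 15, 18.5, 18.4, 16.2, 16.3, 16.7 and 18.1. The normalized values again all lay above those at titer over 1. The fall was 0.21 for each doubling (r = -0.88, exact permutation p = 0.0159, adjusted 0.0297; rho = -0.89, exact permutation p = 0.0123), and the call was lost without any of 0.31-T32, 0.62-T16, 5-T2, 10-T1a or 20-T0.5, with adjusted p-values of 0.0547 to 0.135.

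H4C12, the H4 gene with the highest mean percentile, had 8.50, 7.04, 11.6, 11.4, 14.9, 19.1 and 18.2 from titer 32 to 0.5. It had 13.8, 19.6, 14.6, 21.9, 14.2, 20.7 and 15.4 in the normalized lists. The normalized values alternated between low and high and overlapped those of 5-T2. The values of 19.6, 21.9 and 20.7 were also those of H2AC15 and H2BC15 in the same lists. The mean percentile of H4C12 therefore rests in part on a peak shared with that pair. In 10-T1b its strongest peak was a broad one with its summit at -6134 bases from the TSS along the strand, whereas in 10-T1a the summit lay at 500 bases. The fall was 0.23 for each doubling of titer (r = -0.93, exact permutation p = 0.00437, adjusted 0.0149; rho = -0.89, exact permutation p = 0.0123).

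Fold enrichment at the histone genes fell as the titer rose. Of the 39 genes tested, 35 (89.7%) were called lower with log2 titer at an adjusted p under 0.05, against 68.3% of the 9815 genes with a peak in all 7 fixed lists, and 0 were called higher, against 0.0204%. The calls comprised 4 of 4 H1 genes, 10 of 11 H2A, 9 of 10 H2B, 4 of 5 H3 (with H3C4 measured at the start of H2AC7) and 8 of 9 H4 genes. Counted once for each series of values, 25 of 29 were called. The median change for each doubling of titer was -0.21 on the log2 scale for the histone genes and -0.16 for all genes tested, and over the 6 doublings from 0.5 to 32 the fitted fold enrichment dropped to a median of 0.425 of its start, against 0.505. The exact permutation test over all pairings of the 7 libraries was two-sided with Benjamini-Hochberg adjustment over all genes tested.

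This fall was shared by the genome, and no gene was called for it on the ranks of the peaks. The median fold enrichment of the 39 genes was 7.44, 8.81, 9.77, 9.84, 12.1, 16.4 and 19.2 going down from titer 32 to 0.5. The median over the 9655 genes with a peak in all lists was 7.05, 7.76, 8.21, 9.34, 10.7, 12.8 and 13.6 in the same order. With the percentile in place of the fold enrichment, 0 of 39 histone genes and 0 of 9815 genes were called in either direction. The median percentile of the 39 genes was nevertheless lowest in 0.31-T32, at 91.3, and highest in 20-T0.5, at 97.9. For all genes with a peak in all lists it was 88.6 and 91.0 in the same lists. The absence of calls over 7 libraries therefore does not show that the ranks stayed constant. Without 20-T0.5 the count of called genes was 20 of 39 (29.7% of all genes), and against the titer itself in place of its log2 it was 13 (23%).

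**Figure D2:**
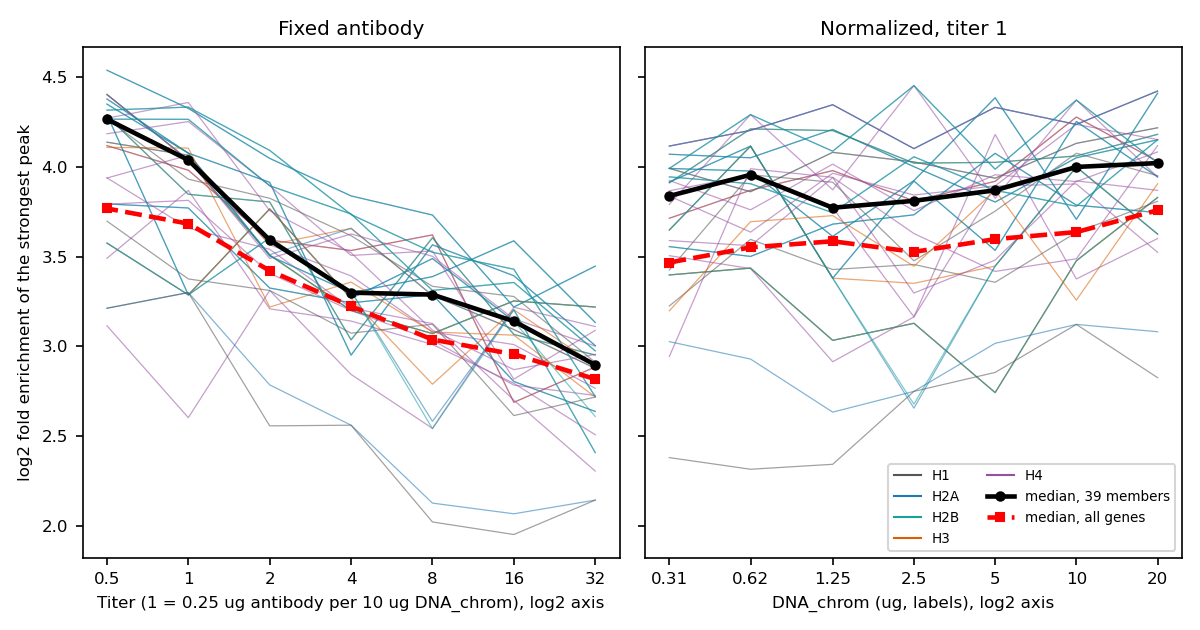
Log2 fold enrichment of the strongest peak for the 39 histone genes with a peak in all 14 lists (thin lines, coloured by class), against titer in the fixed arm (left) and against DNAchrom at titer 1 (right), both on log2 axes. The median of the 39 genes (black) and of all genes with a peak in all lists (red, dashed) fall with titer on the left and change little on the right.

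H4C11 and H4C8 had the largest falls with titer. H4C11 had fold enrichments of 7.75, 7.31, 8.51, 11.5, 13.5, 20.5 and 19.3 from titer 32 to 0.5 and of 12.0, 11.8, 15.3, 9.82, 11.2, 15.2 and 14.6 in the normalized lists. The 2 fixed lists at titer 1 and 0.5 lay above every normalized list. The fall was 0.27 for each doubling (r = -0.96, exact permutation p = 0.00198, adjusted 0.0110; rho = -0.93, exact permutation p = 0.00675). H4C8 had 4.94, 6.49, 8.73, 9.27, 11.6, 12.6 and 15.3, an unbroken order, and 14.3, 12.4, 15.6, 14.3, 14.9, 18.8 and 17.8 in the normalized lists, all above the values at titer over 1. Its fall was 0.26 (r = -0.98, exact permutation p = 0.000397, adjusted 0.00834; rho = -1.0, exact permutation p = 0.000397), and this p is the smallest these permutations can give.

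The smallest changes were at H4C4 and H3C10. H4C4 had 8.63, 9.30, 5.82, 7.17, 9.92, 6.07 and 8.66 from titer 32 to 0.5, with a slope of 0.016 on the log2 scale (r = 0.11, exact permutation p = 0.797, adjusted 0.807; rho = -0.036, exact permutation p = 0.963). Its normalized values, 7.69, 15.9, 15.4, 12.4, 10.7, 11.2 and 17.4, spread more than 2-fold and lay mostly above the fixed ones. H3C10 had 7.44, 9.21, 6.91, 9.62, 13.6, 9.76 and 11.9, and 12.5, 17.3, 10.4, 10.2, 10.9, 16 and 12.3 in the normalized lists, with a slope of -0.11 (r = -0.71, exact permutation p = 0.0766, adjusted 0.0952; rho = -0.79, exact permutation p = 0.0480). H2AC14 and H2BC14, a divergent pair, were the remaining genes not called, with slopes of -0.17 each and adjusted p-values of 0.0596 and 0.0647. With 0.31-T32 and 20-T0.5, which lie at the ends of the titer range, left out together, the correlation stayed negative for 38 of the 39 genes, with a median r of -0.90, and was 0.21 for H4C4.

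**Figure D3:**
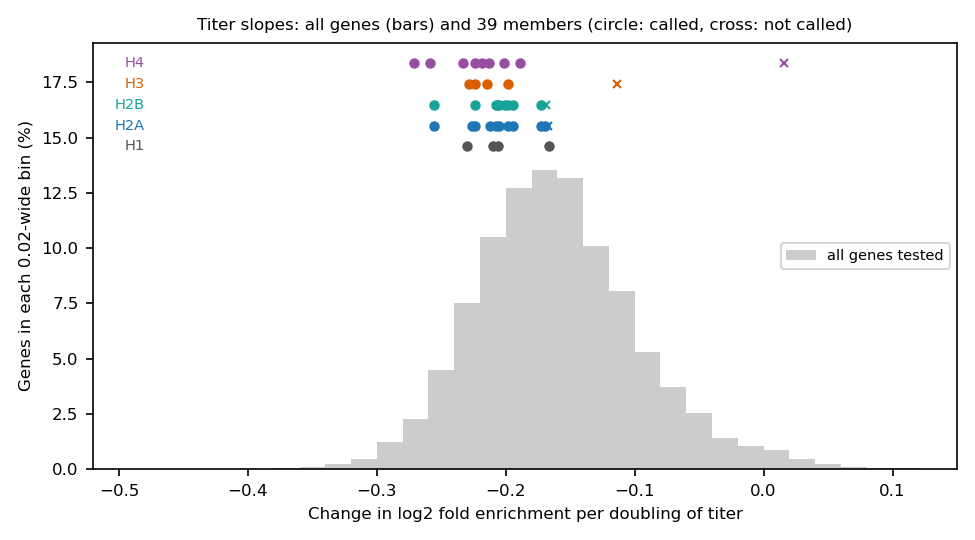
Change in log2 fold enrichment for each doubling of titer. Bars give the percentage of all 9815 genes tested in each bin 0.02 wide, and symbols give the 39 histone genes by class (circles for genes called lower, crosses for those not called), most of which lie to the left of the median of all genes at -0.16, with H4C4 at 0.016.

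At titer 1 no change with the amount of chromatin was called. Of the 41 histone genes with a peak in all 7 normalized lists, 0 were called in either direction, as were 0% of the 10274 genes tested, by the same exact permutation test with Benjamini-Hochberg adjustment. At an unadjusted p under 0.05, 2 of the 41 were higher with DNAchrom (4.88%, against 11.3%) and 0 lower (against 0.438%). These 2 were H1-5, with r = 0.86 and an exact permutation p of 0.0212 (adjusted 0.368), and H4C8, with r = 0.79 and an exact permutation p of 0.0381 (adjusted 0.408). The median change for each doubling of DNAchrom was 0.035 on the log2 scale for the histone genes and 0.038 for all genes. In the fixed arm, where the same doublings of DNAchrom each lowered the titer by a factor of 2, the median change for each doubling of titer was -0.21. The median fold enrichment of the 39 genes ranged from 13.7 in H3K27ac-1.25-T1 to 16.2 in 20-T1.

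The arms were compared at the 6 amounts at which their titers differed. The difference in log2 fold enrichment, normalized minus fixed, had a median of 0.38 over the 39 histone genes and of 0.36 over the 9659 genes tested. By an exact sign-flip permutation test over 64 patterns, whose smallest p is 0.0312, 10 of the 39 genes (25.6%) were higher at an unadjusted p under 0.05, against 30.3% of all genes, and 0 were lower, against 1.27%. After Benjamini-Hochberg adjustment 0 genes were called among the 39 and 0% of all genes. When the 12 libraries were exchanged between the arms without regard to amount, 4 of the 39 were called higher (18.3% of all genes). All 7 normalized values lay above all 5 values at titer over 1 for 15 of the 39 genes (38.5%, against 24.6%).

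The largest differences were at H4C9, H4C3 and the pair H2AC8 and H2BC8, at 1.10, 0.89 and 0.87. H4C3 had 5.68, 6.93, 8.05, 8.82, 9.24, 14.6 and 11.2 in the fixed lists from 0.31-T32 to 20-T0.5 and 15.2, 13.6, 16.2, 13.5, 15.5, 15.1 and 16.9 in the normalized ones. Its normalized value was higher at all 6 amounts (exact sign-flip p = 0.0312, adjusted 0.0991). H4C9 had 6.61, 6.88, 8.19, 9.18, 10.6, 14.1 and 13.8 and then 17.3, 18.4, 20.3, 17.2, 20.1, 18.8 and 21.4. In all 7 normalized lists the strongest peak of H4C9 was the broad peak that it shared with H2BC11 and H2AC11 (in 5-T1, chr6:27133059-27140490), with the summit at -5841 to -5235 bases from the TSS of H4C9. In the fixed lists 0.31-T32, 0.62-T16 and H3K27ac-1.25-T8 it was a separate peak with its summit at -439, 142 and 145 bases from the TSS. The difference at H4C9 is therefore between different peaks, and only 4 lists held a peak with its summit within 2 kb of this gene.

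The lowest differences were at H2AC7, H3C4 and H2BC7, which shared 1 value in each list and had a difference of -0.18. Their fold enrichment was 9.31, 9.53, 8.40, 9.18, 11.4, 16.4 and 21.2 from titer 32 to 0.5 and 10.5, 10.8, 8.18, 8.74, 6.69, 11.1 and 14.2 at titer 1. The normalized value was higher at 2 of the 6 amounts (exact sign-flip p = 0.406, adjusted 0.503). The fixed libraries 10-T1a and 20-T0.5 were the highest of the 14 here. The direction turned to 0.012 when the summit had to lie within the window and to 0.22 with a window of 5 kb.

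The arms were also compared for a difference that shrank as DNAchrom rose. Over the 7 amounts this trend was called for 2 of the 39 histone genes (5.13%, against 4.35% of the 9655 genes tested), H2AC15 and H2BC15, which share 1 series of values. For this pair the adjusted p was 0.0451 by the exact permutation test, and it was called in none of the fits that left out a pair of libraries or exchanged 10-T1a with 10-T1b. H2AC15 and H2BC15 had fold enrichments of 7.86, 10.2, 9.93, 13.3, 14.9, 19.2 and 19.2 in the fixed lists and of 15.9, 19.6, 17, 21.9, 15.9, 20.7 and 16.2 in the normalized ones.

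The 2 libraries of 10 µg at titer 1 give the only difference within 1 condition. They belong to different arms with different inputs, so arm, input and library error cannot be told apart in it. The absolute log2 difference between 10-T1a and 10-T1b had a median of 0.29 over the 39 genes and of 0.29 over all genes. The SD computed from this difference was 0.33 over the 39 genes, which are not independent of each other. The largest difference was at H2AC13 and H2BC13, whose shared value was 9.76 in 10-T1a and 19.1 in 10-T1b, a log2 difference of 0.97. H3C10 had the same value as this pair in 10-T1a but not in 10-T1b, with a log2 difference of 0.71. The strongest peaks of the 2 lists thus reached different genes here, and the part of this in the difference was not tested. Both had 8.81, 11.2, 9.62, 13.6, 9.76 and 19.6 from 0.62-T16 to 20-T0.5, with 7.44 for H2AC13 and 6.10 for H2BC13 in 0.31-T32, and 15.1, 17.3, 10.4, 15.1, 11.6, 19.1 and 15.4 in the normalized lists. The slopes with titer were -0.17 and -0.20, with adjusted p-values of 0.0424 and 0.0350 by the exact permutation test. For H2AC13 the call was lost without each fixed library other than 10-T1a, with adjusted p-values of 0.0566 to 0.202, and for H2BC13 without each of 5 libraries, with 0.0566 to 0.160.

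Peaks lay on both sides of the TSS. Averaged over the 5 fixed lists of titer over 1, the share of the 39 genes with a peak at a given base was 86.7% at 600 bases upstream, 10.3% at 100 bases upstream and 93.8% at 400 bases downstream. For all genes with a peak in all lists the highest shares were 64.1% at 400 bases upstream and 86.9% at 200 bases downstream, with 29% at 50 bases upstream. In the normalized lists the share of histone genes 100 bases upstream was 27.1%, and that of all genes 44.4%. Away from the TSS the histone genes were covered more often, with 67.4% at 2 kb upstream and 79.1% at 2 kb downstream in the normalized lists, against 24.1% and 37.5% of all genes. The median length covered within the 4 kb around the TSS ran from 2204 to 3692 bases over the 14 lists for the histone genes and from 1348 to 2528 for all genes. Neighbouring histone genes lie within each other's windows, and their part in this coverage was not tested.

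**Figure D4:**
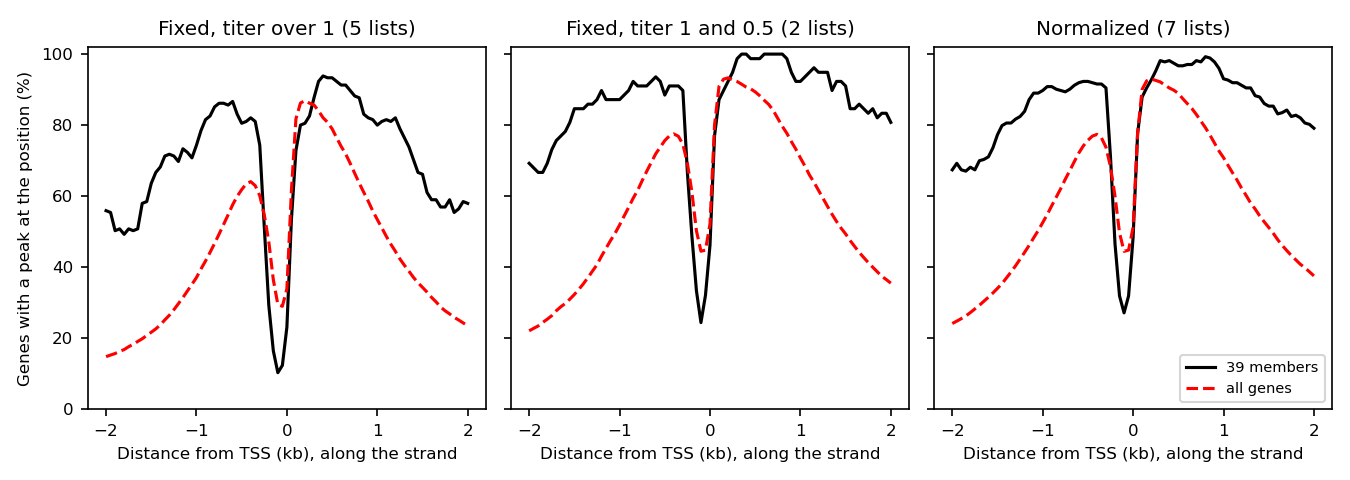
Percentage of genes with a peak at each position within 2 kb of the TSS, along the direction of transcription, for the 39 histone genes (black) and all genes with a peak in all 14 lists (red, dashed), averaged over the lists named above each panel. Both show a dip just upstream of the TSS, deeper for the histone genes at titers over 1 (10.3% against 29%), and the histone genes stay covered farther out.

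The peaks were broad and often peaked away from the gene. The width of the strongest peak had a median of 1174 to 3730 bases over the lists for the histone genes and of 722 to 1852 for all genes. The median absolute distance of its summit from the TSS was 482 to 878 bases, against 335 to 377. The summit lay over 2 kb away for 1 to 11 of the 39 genes, 2.56% to 28.2% by list, against 2.69% to 5.04% of all genes. When the summit had to lie within 2 kb, 30 of 37 histone genes were called lower with titer (67.0% of all genes).

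Other histone genes gave a range of results by the same rule. For all protein-coding genes, 49.2% had a peak in all 14 lists and 68.3% of those tested were called lower with titer. Of 15 replication-dependent histone genes on other chromosomes, 7 (46.7%) had a peak in all 14 lists, 2 in some and 6 in none, and 6 of the 7 tested were called lower with titer. H2AC20, H2AC21 and H2BC21 had the highest mean percentile of these, at 98.6, and shared a peak. H2AC18 was the lowest, at 61.6, and was not called (slope -0.29, adjusted p = 0.0870 by the exact permutation test). Of 12 replication-independent histone genes, which are expressed outside S phase and have introns or poly(A) tails in most cases, 9 (75%) had a peak in all lists and 7 of these were called lower. H3-3B, a gene for the variant H3.3, ranked highest at 97.7, and H2AJ, MACROH2A2 and H3-5 had no peak in any list.

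Factors of histone gene transcription and 3′ end processing were marked in nearly all cases. Of 26 symbols listed, 25 were found in the table, 23 of them (92%, against 49.2% of all genes) with a peak in all lists. Of the 23, 18 were called lower with titer, against 68.3% of all genes tested, and 0 higher. SLBP, which binds the histone stem-loop, had a mean percentile of 97.7 and a slope of -0.25 (adjusted p = 0.00875 by the exact permutation test). By the same exact permutation test NPAT had 95 and -0.20 (adjusted p = 0.0102), and POU2F1, which binds the octamer, had 97.4 and -0.18 (adjusted p = 0.0136). POU2AF1, a coactivator of octamer factors in B cells, had no peak in any list. LSM11, a part of the U7 snRNP that cuts histone messages, ranked lowest of those with a peak in all lists, at 69.8. The 41 other protein-coding genes between 25 and 29 Mb of chromosome 6 had a peak in all lists in 19 cases (46.3%), with a median mean percentile of 88.9. Of these 19, 15 were called lower, beside the same 68.3% of all genes tested.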

How the data were processed

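K562 chromatin was immunoprecipitated with an H3K27ac antibody and sequenced as paired ends. The paper describes mapping in Partek Flow, retaining a pair if at least 1 end was uniquely placed, and calling peaks with MACS2. Each deposited list is named for its library and the input library of its arm. The submitters' processing notes name CASAVA 1.4, BWA 0.5.9 and hg38, and the positions were read as GRCh38, although the paper names hg19; the peaks of all genes gathered at the starts of GRCh38. The deposited lists give for each peak a fold enrichment, which is a ratio to input, a −log10 q-value and the offset of the summit in bases. The lists run down to a −log10 q of 1.30, and peaks of at least 2 were used, the 1% named in the paper's methods. At this threshold each list held more peaks than the paper reports for its library. The lists are therefore not the peak sets counted in the paper, and the reason was not tested. The deposited −log10 p-value and integer score columns were not used, and no signal tracks were analysed here. Read counts are not in the lists, and read depth was not used here.

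Genes and starts were those of RefSeq for GRCh38.p14, with the strand from the RefSeq promoter table for 15813 genes and from GENCODE by symbol for 3817, including 5 of the 55. For each gene and list the strongest peak overlapping the 2 kb on either side of the TSS was taken. Trends were tested as Pearson's r of log2 fold enrichment with log2 titer or log2 DNAchrom by exact permutation over all pairings, and the matched arm difference by an exact sign-flip permutation test over 64 patterns, each two-sided and adjusted by the Benjamini-Hochberg method over all genes with the peaks needed. Functions were tested on simulated data. The genes, gene lists and tests were chosen with earlier results of these data known. The genes given in full were the highest of each class by mean percentile, up to 8 with a peak in 1 to 13 lists (fewest lists first), the 2 largest and 2 smallest falls with titer, and the 2 largest differences of 10-T1a and 10-T1b. The genes of the arm difference, H2AC15, H2BC15, H1-5 and H3C7 were named after their values were seen. Alternatives were other q-values, windows, scales and statistics, leaving out libraries, and exchanging 10-T1a and 10-T1b. Starts from the promoter table, counting shared peaks once and the trend of the arm difference were added after seeing the data. Python 3.11.15 with numpy 2.4.6, scipy 1.17.1, pandas 2.3.3 and matplotlib 3.10.9 was used.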

Additional observations from a re-analysis of the deposited data

How the results depend on the processing

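The number of histone genes with a peak in every list was 36 to 42 under the alternatives. With a q-value threshold of 5 on the −log10 scale 14 genes had no peak in any list, and with a window of 5 kb 4 had none. The count called lower with titer was 0 on the percentile scale, 13 on the linear scale, and 20 to 31 when a fixed library was left out. The arm difference was called higher for 4 genes when the libraries were not paired by amount. In the main setting the fall with titer was called for 89.7% of the histone genes against 68.3% of all genes tested. In the same setting the trend of the arm difference with DNAchrom was called for 5.13% against 4.35%. The shares of all genes beside the counts of the titer trend and of the unpaired arms are given above with those results. The counts here show only how the calls depend on the setting. The trend of the arm difference with DNAchrom was called for 7 genes at a threshold of 5, for 4 with a window of 1 kb or the summit within the window, for 1 with covered bases, and for 0 with percentiles, missing peaks filled, Spearman's rho, 10-T1a and 10-T1b exchanged, or any pair of libraries left out (0 to 0). For the arm trend no share of all genes at these settings is given here. The median of the mean percentiles, 94.2, became 92.6 and 87.5 at thresholds of 3 and 5, 94.8 with the full lists, 93.5 and 95 with windows of 1 and 5 kb, 93.7 with the summit within the window, and 93.9 to 94.4 without single libraries. The median covered length, 3546.5 bases, became 3562 at a threshold of 5, 1743.5 and 6355 with windows of 1 and 5 kb, and 3220.75 with the summit within the window. The direction turned for the arm difference of H2AC7 (0.22 with 5 kb, 0.012 with the summit rule, 592 covered bases), the titer correlation of H2AC13 on percentiles (r = 0.000589) and of H3C10 on percentiles (r = 0.27), and that of H4C4 with covered bases (r = -0.94), Spearman's rho (-0.036), exchanged libraries (r = -0.33) or single libraries left out (-0.13 to 0.32). The arms were matched by amount of DNAchrom and not by replicate number. No pairing by replicate number was possible, because only 1 condition has 2 libraries and the groups share no number beyond the first. Lists without read counts and 1 library for each condition limit all values.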
